A study of Homo sapiens with 3 samples.

Results

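Proteasome genes were followed through 3 single-cell RNA libraries of FaDu, a human line of squamous carcinoma of the hypopharynx. Members were all genes whose symbol starts with PSMA, PSMB, PSMC, PSMD or PSME and a digit, pseudogene symbols left out, which gave 48 of the 58735 genes in the files. Of these, 43 encode subunits, assembly chaperones or activators of the proteasome, namely the 5 interferon-inducible members PSMB8, PSMB9, PSMB10, PSME1 and PSME2 and 38 others. The remaining 5 share only the letters of the symbol: the noncoding RNAs PSMA3-AS1, PSMB8-AS1, PSMD6-AS1 and PSMD6-AS2, and PSMC3IP, a meiotic recombination factor.

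Each group was 1 library. The TPF plus cinobufotalin library came from a FaDu subline resistant to TPF (paclitaxel, cisplatin and 5-fluorouracil) that was given TPF together with cinobufotalin, a bufadienolide, which is a steroid class of toad venom. The TPF library came from the same resistant subline given TPF, and the FaDu library from parental FaDu cells given cinobufotalin without TPF. By the labels the first pair differed in cinobufotalin, and its cells also differed in depth, with a median of 17867 UMIs per cell with TPF plus cinobufotalin and 27920.5 with TPF, whereas both comparisons with FaDu cells also differed in the line and in TPF, and FaDu cells without cinobufotalin or with TPF were not analysed here. Doses, times and whether the subline is 1 clone are given in none of the sources used here.

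The proteasome degrades proteins tagged with ubiquitin. Its barrel-shaped 20S core has outer rings of alpha subunits and inner rings of beta subunits, of which PSMB5, PSMB6 and PSMB7 carry the peptidase sites, and the 19S cap recognises, unfolds and feeds in the substrate. Interferon induces PSMB8, PSMB9 and PSMB10, which take the place of PSMB5, PSMB6 and PSMB7 in the immunoproteasome, and PSME1 and PSME2, which together form the PA28 activator; these forms favour peptides for display on MHC class I.

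The kept cells numbered 7525 in the TPF plus cinobufotalin library, 4862 in the TPF library and 6123 in the FaDu library, with 134802289, 135176387 and 165847771 UMIs (unique molecular identifiers, each 1 captured RNA molecule) in that order. Members held 0.744%, 0.784% and 0.837% of these. MALAT1, a nuclear RNA, took a median of 0.731%, 0.795% and 0.0892% of a cell's UMIs, so the FaDu library stood apart. All 10 squamous epithelial markers averaged at least 5 CPM (UMIs of a gene, with every library set to an equal total), with a summed level of 3751, 4900 and 6672 CPM. None of the 12 immune markers did, though immune cells use the immunoproteasome constitutively: their summed level was 8.52, 10.6 and 9.94 CPM, and PTPRC, the pan-leukocyte marker, had 1, 0 and 1 UMIs. Of kept barcodes, 10 were shared by the TPF plus cinobufotalin and TPF libraries, 13 by the TPF plus cinobufotalin and FaDu libraries and 9 by the TPF and FaDu libraries.

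No group had a replicate, so no difference between groups was tested, and a difference between libraries and one between conditions cannot be told apart. Intervals are 95% Clopper-Pearson intervals, which cover counting error only. Genes were compared where their mean over the 3 libraries was at least 10 CPM, which 8143 genes did, among them 44 of the 48 members: all 5 interferon-inducible ones, 36 of the 38 other subunits, PSMA3-AS1, PSMB8-AS1 and PSMC3IP. The 4 left out were PSMA8, the alpha subunit of the testis, with 5, 1 and 3 UMIs in the TPF plus cinobufotalin, TPF and FaDu libraries, PSMB11, the beta subunit of the thymic cortex, with 2, 0 and 1, PSMD6-AS1 with 10, 12 and 6, and PSMD6-AS2 with 184, 141 and 132. A difference of at least 1.5-fold (log2 ratio 0.58) was counted as a call.

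Promoter stretches are printed for some of the members with a match, with the matched motif in capitals and 10 flanking bases on each side. Of the 43 genes, 38 had a promoter in RefSeq (build GRCh38.p14), and the 250 bases before each start were searched on both strands for GAAANNGAA, a core shared by interferon-stimulated response elements, TTCNNNGAA, the gamma-activated site, and TGACNNNGC, the antioxidant response element through which NFE2L1 and NFE2L2 act. The first 3 lie at chr16:67936853-67936881, chr14:24146620-24146648 and chr6:32844094-32844122, all on the minus strand, and the last 2, of the cap subunit PSMD12 and the cap chaperone PSMD5, at chr17:67366724-67366752 and chr9:120843038-120843066, also on the minus strand.
PSMB10: gggtaaaggcGAAAGCGAAagcaggaagt
PSME2: cctggggagtGAAAGCGAAagcccgggcg
PSMB8: aactgtccttTTCTCGGAAaaggcagggg
PSMD12: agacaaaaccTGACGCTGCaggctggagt
PSMD5: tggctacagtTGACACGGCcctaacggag

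The interferon response core was found in 2 of the 5 interferon-inducible members, PSMB10 and PSME2, and in 2 of 33 other subunits, PSMA4 and PSMB4, against 6.88% of all 35116 RefSeq promoters. In PSMB10 and PSME2 the printed stretch overlaps an exon of the gene in GENCODE release 29. The gamma-activated site was found in PSMB8 alone of the 5, in a stretch that overlaps an exon of PSMB8-AS1, and in 6 of the 33 others, against 6.57%. The antioxidant element was found in 3 of the 5 (PSMB9, PSME1 and PSME2) and in 8 of the 33 (PSMA4, PSMB3, PSMC5, PSMD12, PSMD3, PSMD5, PSMD9 and PSME4), against 10.9%. A gene counted if any of its promoters matched (45 promoters for 38 genes), whereas the shares are per promoter. These matches describe letters and show no binding.

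**Figure D1:**
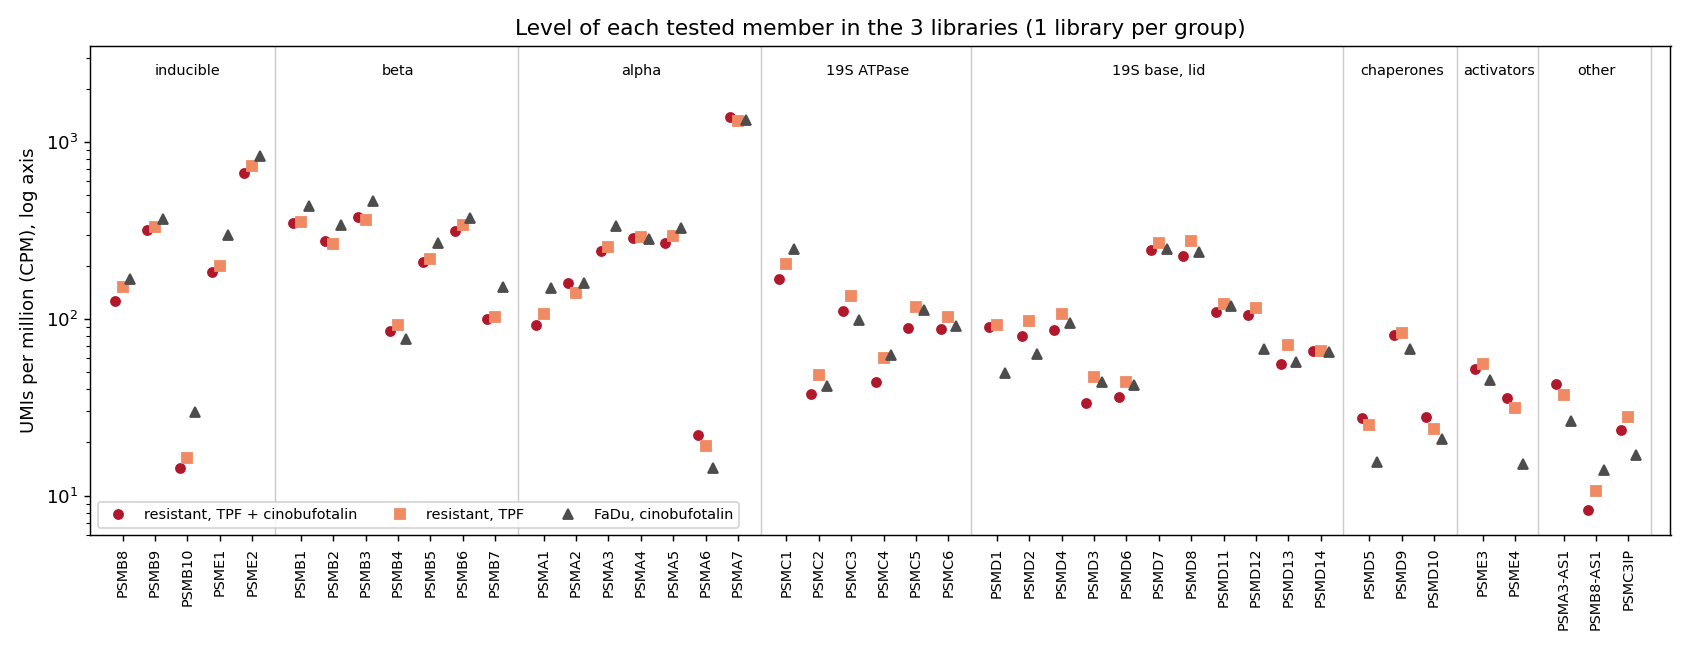
Level of the 44 compared members in CPM on a log axis, with 1 point per library (TPF plus cinobufotalin left, TPF middle, FaDu right) and members grouped by role. The 5 interferon-inducible members are all highest in the FaDu library, whereas PSMD1, PSMD5, PSMD12 and PSME4 are lowest there. UMI counts are not scaled by transcript length, so points are to be compared within a gene.

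The interferon-inducible members had their highest level in the FaDu library and their lowest in the TPF plus cinobufotalin library. PSMB8, the chymotrypsin-like immunosubunit, was at 127 CPM in the TPF plus cinobufotalin library, 152 CPM in the TPF library and 167 CPM in the FaDu library. PSMB9, which replaces PSMB6, was at 317, 329 and 368 CPM in the same order, and PSMB10, which replaces PSMB7, at 14.4, 16.4 and 29.7 CPM. The 3 libraries lay close together in PSMB9, while in PSMB10 the FaDu library stood apart from both resistant libraries. The PA28 alpha gene PSME1 was at 185 CPM with TPF plus cinobufotalin, 199 CPM with TPF and 300 CPM in FaDu cells, and the PA28 beta gene PSME2 at 665, 732 and 832 CPM. Summed, the 5 reached 1309, 1427 and 1697 CPM, and the other subunits 6060, 6340 and 6618 CPM.

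On the CPM scale several constitutive members were alike in all 3 libraries and were singled out after their values were seen. PSMD14, the lid enzyme that removes ubiquitin from substrates, was at 65.5 CPM with TPF plus cinobufotalin, 66.2 CPM with TPF and 65.3 CPM in FaDu cells, and its 3 log2 ratios lay between -0.02 and 0.02. PSMA4, an alpha subunit, was at 285, 289 and 282 CPM, and PSMA7, another, at 1382, 1314 and 1338 CPM. This likeness depends on the scaling. Relative to the median of all tested genes, TPF over FaDu was -0.35 for PSMD14, -0.33 for PSMA4 and -0.40 for PSMA7. PSME3, the nuclear activator PA28 gamma, was less alike but passed the call in no pair, at 52.0, 55.9 and 45.0 CPM.

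What cinobufotalin added to TPF was addressed by the TPF plus cinobufotalin library over the TPF library. Of the 44 members, 0 were called higher and 0 lower at 1.5-fold, where 0.0737% and 0.172% of all 8143 genes were, and relative to the median gene these counts were also 0 and 0, where 0.111% and 0.0982% of genes were. At 2-fold they were 0 and 0 again, where 0.0123% of genes were higher and 0.0123% lower. The counting intervals of all 44 lay within 1.5-fold either way, as did those of 8099 of 8143 genes. PSMB8 had a log2 ratio of -0.25 (-0.28 to -0.23), PSMB10 of -0.19 (-0.28 to -0.10), PSME2 of -0.14 (-0.15 to -0.12), PSME1 of -0.10 (-0.13 to -0.08) and PSMB9 of -0.05 (-0.07 to -0.04). All 5 were below 0, as were 28 of 36 other subunits and 5201 of all 8143 genes. The medians of the inducible members and the other subunits, -0.14 and -0.11, differed by -0.03 (median of all tested genes -0.06).

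Within this pair the classes of subunit differed in their medians, though their ranges overlapped. All 17 subunits of the 19S cap had a log2 ratio below 0, where 5201 of all 8143 genes did. They ran from -0.49 to -0.02 with a median of -0.28, and 15 of them lay below the median gene. The 14 compared subunits of the 20S core ran from -0.20 to 0.20 with a median of -0.03, with 5 above 0 and 9 below. PSMD3, a subunit of the cap's lid, was at 33.4 CPM with TPF plus cinobufotalin against 46.8 CPM with TPF (-0.49, -0.54 to -0.43). PSMC4, an ATPase of the ring that unfolds substrates, was at 43.8 against 59.8 CPM (-0.45, -0.50 to -0.40), and PSMC5, another of these ATPases, at 89.1 against 117 CPM (-0.40, -0.43 to -0.36). The 6 ATPases together had a median of -0.32, and their summed level was 537 against 667 CPM.

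The highest log2 ratios among members of this pair were those of PSMD10, a chaperone of cap assembly also called gankyrin (0.22, 0.15 to 0.29), of PSMA3-AS1 (0.21, 0.15 to 0.26), and of the alpha subunits PSMA6 (0.20, 0.13 to 0.28) and PSMA2 (0.18, 0.15 to 0.21). The chaperone PSMD5, which holds ATPases of the cap before they join the core, was at 0.13 (0.07 to 0.20) and PSMD9 at -0.03 (-0.07 to 0.00). Thus the 3 chaperones all lay above the median gene (-0.06), whereas 15 of the 17 cap subunits lay below it. The counting interval of PSMD9 included the median gene. Core subunits made up 71.3% of core and cap UMIs with TPF plus cinobufotalin, 67.8% with TPF and 73.0% in FaDu cells. The contrast of cap and core was chosen after its values were seen.

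The TPF library over the FaDu library compared resistant cells under TPF with parental cells under cinobufotalin. Of the 44 members, 6 were at least 1.5-fold higher, where 35.0% of all genes were, and 2 were at least 1.5-fold lower, where 2.01% were. The share of members called higher was thus below that of all genes, but it was not set against genes of like level. Those called higher were PSMD1, PSMD2, PSMD5, PSMD12, PSME4 and PSMC3IP, and those called lower PSMB10 and PSME1. Of the 5 interferon-inducible members, all were below 0, whereas 13 of 36 other subunits and 1849 of all 8143 genes were. Those 13 were mostly of the core. There 11 of the 14 compared subunits were below 0, among them 6 of the 7 constitutive beta subunits, against 2 of the 17 cap subunits.

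PSMD1, the largest scaffold subunit of the cap's base, was at 92.4 CPM in the TPF library against 49.5 CPM in the FaDu library (log2 ratio 0.90, 0.86 to 0.94). PSMD12, a lid subunit, was at 115 against 67.9 CPM (0.76, 0.72 to 0.79), PSMD5 at 25.1 against 15.4 CPM (0.70, 0.63 to 0.78), and PSMD2, the base subunit that receives ubiquitin-like domains, at 97.5 against 63.5 CPM (0.62, 0.58 to 0.66). PSME4, the activator PA200, was at 31.5 against 15.1 CPM (1.06, 0.99 to 1.13) and was the only member at least 2-fold higher, where 13.2% of all genes were; 0 members were 2-fold lower, where 0.344% were. PSMC3IP was at 27.9 against 16.9 CPM (0.72, 0.65 to 0.79). All 6 counting intervals excluded 0, as did those of 93.2% of all genes.

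On the other side, PSMB10 was at 16.4 CPM in the TPF library against 29.7 CPM in the FaDu library (-0.86, -0.93 to -0.79), and PSME1 at 199 against 300 CPM (-0.59, -0.62 to -0.57). PSMB7, the trypsin-like subunit that PSMB10 replaces, was just short of the call, at 103 against 151 CPM (-0.56, -0.59 to -0.53). The alpha subunit PSMA1 had a log2 ratio of -0.49 (-0.52 to -0.46), PSMA3 of -0.40 (-0.42 to -0.39) and the beta subunit PSMB2 of -0.35 (-0.37 to -0.33). PSMB8 (-0.13, -0.16 to -0.11), PSMB9 (-0.16, -0.18 to -0.15) and PSME2 (-0.19, -0.20 to -0.17) differed less.

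The level at which libraries are set equal decides much of this comparison. The median gene had a log2 ratio of 0.37 (0.19 among genes of at least 50 CPM). Below 0.37 lay 29 of the 36 other subunits and all 5 interferon-inducible members. Of the 2902 genes of at least 50 CPM, 1867 lay below 0.37 too, and 33 members were at that level. Relative to the median gene, 1 member, PSME4, was at least 1.5-fold higher and 11 were lower, where 14.9% and 11.3% of all genes were. With TMM factors of edgeR, which put the median gene at -0.20, 0 members were called higher and 19 lower, where 8.46% and 21.5% of all genes were. Differences between classes do not depend on the scaling. The median of the 5 interferon-inducible members was -0.19 and that of the other subunits 0.08, a difference of -0.26, and the median of the cap (0.16) exceeded that of the core (-0.24) by 0.40. The median of the inducible members thus did not lie below that of the core in this pair.

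The TPF plus cinobufotalin library over the FaDu library had cinobufotalin in both groups. It shares a library with each of the other pairs, so its values stand beside theirs and are no separate support. Of the 44 members, 6 were called higher, where 32.6% of all genes were, and 5 lower, where 4.14% were. PSMD1 (0.86, 0.82 to 0.90), PSMD12 (0.63, 0.59 to 0.67), PSMD5 (0.84, 0.76 to 0.91) and PSME4 (1.23, 1.16 to 1.31) were called higher in this pair too, with PSMA6 at 21.9 against 14.3 CPM (0.62, 0.54 to 0.70) and PSMA3-AS1 at 42.9 against 26.4 CPM (0.70, 0.64 to 0.76). Those called lower were PSMB10 (-1.05, -1.12 to -0.97), PSME1 (-0.69, -0.72 to -0.67), PSMB7 (-0.61, -0.64 to -0.58), PSMA1 at 92.8 against 149 CPM (-0.68, -0.71 to -0.65) and PSMB8-AS1 at 8.24 against 14.0 CPM (-0.76, -0.87 to -0.66).

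The other interferon-inducible members had log2 ratios of -0.39 (-0.42 to -0.36) for PSMB8, -0.32 (-0.34 to -0.31) for PSME2 and -0.22 (-0.24 to -0.20) for PSMB9. Their median with PSMB10 and PSME1 was -0.39, against -0.07 for the other subunits, a difference of -0.32, while the median gene was at 0.31 (0.14 among genes of at least 50 CPM). Relative to that gene, 1 member was at least 1.5-fold higher and 17 lower, where 17.5% and 13.3% of all genes were, and TMM factors gave 1 and 25, where 9.96% and 25.0% of genes were. At 2-fold PSME4 was called higher and PSMB10 lower, where 13.3% and 0.761% of genes were. The cap's ATPase PSMC1 (-0.56, -0.58 to -0.53) was the cap subunit farthest below 0 here. The median of the cap was -0.07 and that of the core -0.29, with 10 of 14 compared core subunits below 0, where 2336 of all 8143 genes were.

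**Figure D2:**
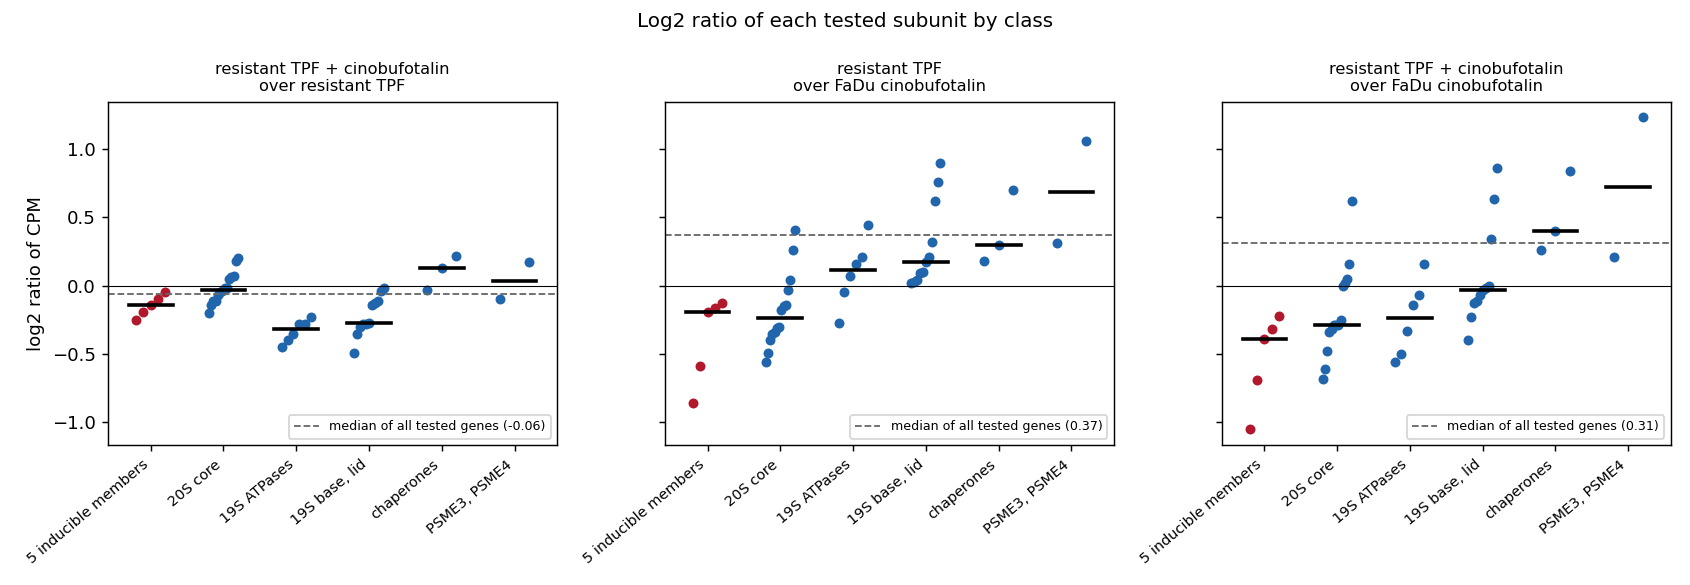
Log2 ratio of CPM of each compared subunit by class in the 3 pairs, with the class median as a black bar and the median of all 8143 tested genes as a dashed line. With TPF plus cinobufotalin over TPF every subunit of the 19S ATPases, base and lid is below 0 while the 20S core straddles it, and in both comparisons with FaDu cells all 5 inducible members lie below 0 and below the dashed line. Of 14 core subunits, 13 also lie below the dashed line in both.

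The pooled share of immunosubunits in the RNA of the catalytic genes differed little between libraries. The shares of PSMB8 with PSMB5 and of PSMB10 with PSMB7 differed more. PSMB8, PSMB9 and PSMB10 together took 42.3% (42.1 to 42.6) of the UMIs of the 6 catalytic genes in the TPF plus cinobufotalin library, 43.0% (42.8 to 43.3) in the TPF library and 41.6% (41.4 to 41.8) in the FaDu library. UMI counts are not scaled between genes, so these shares serve to compare libraries and give no stoichiometry. PSMB9 took 50.3%, 49.3% and 49.7% of UMIs of PSMB9 and PSMB6, whose levels were 313, 338 and 373 CPM. PSMB8 took 37.6%, 41.2% and 38.4% with PSMB5, which was at 211, 217 and 267 CPM, so this pair set the TPF library apart. PSMB10 took 12.6%, 13.7% and 16.4% with PSMB7, and PSME1 took 21.8%, 21.4% and 26.5% with its partner PSME2, both highest in FaDu cells.

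Within each library, cells rich in interferon-stimulated RNA were also rich in the interferon-inducible members. Cells thinned to 5000 UMIs were ranked by the summed UMIs of 41 interferon-stimulated genes, a list that holds no member, and the highest 10% were set against the lowest 50%. The high cells numbered 683, 461 and 589 and the low cells 3492, 2329 and 3012 in the TPF plus cinobufotalin, TPF and FaDu libraries. The ranking is a range and not a cell type, and 47, 18 and 26 cells lay at or next to the upper limit. In the TPF plus cinobufotalin library the 5 members summed to 1993 CPM in high cells against 846 CPM in low cells (log2 ratio 1.24, 1.20 to 1.28), in the TPF library to 2218 against 932 CPM (1.25, 1.20 to 1.30), and in the FaDu library to 2432 against 1121 CPM (1.12, 1.08 to 1.16). The other subunits summed had log2 ratios of 0.05, 0.04 and 0.17. Of these 36, 12, 10 and 16 had an interval above 0 and 5, 4 and 2 one below 0. The sum weighs most on PSMA7, at -0.27, -0.32 and -0.06, whereas the alpha subunits PSMA2 (0.38, 0.34 and 0.41), PSMA4 (0.38, 0.32 and 0.52) and PSMA5 (0.37, 0.36 and 0.41), singled out after their values were seen, were higher in high cells of every library.

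PSMB9 had log2 ratios of 1.60 (1.52 to 1.69), 1.67 (1.57 to 1.77) and 1.61 (1.53 to 1.69) in the 3 libraries in this order. In the TPF plus cinobufotalin library that was 560 CPM in high cells against 184 CPM in low cells. PSME2 was at 1.21, 1.20 and 1.00, PSMB8 at 0.93, 1.04 and 1.08, and PSME1 at 0.99, 0.99 and 0.86. PSMB10 had 0.76 (0.46 to 1.06) in FaDu cells, at 42.1 against 24.8 CPM, but intervals that included 0 in both resistant libraries, at 0.14 (-0.32 to 0.57) with TPF plus cinobufotalin and 0.42 (-0.09 to 0.91) with TPF, on 53 and 44 UMIs in high cells. Whether PSMB10 differs here between libraries was not tested, and the intervals overlap. TAP1, the peptide transporter gene next to PSMB9, was at 1.36, 1.56 and 1.43.

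At least 1.5-fold higher in high cells were 4 of the 5 members in the TPF plus cinobufotalin library, 4 in the TPF library and 5 in the FaDu library, where 4.53%, 5.01% and 5.71% of all genes were. Of the 36 other subunits 0, 0 and 1 were, the last being PSMA6 at 0.74 (0.28 to 1.19). At least 1.5-fold lower were 0, 0 and 1 of these 36, the last being PSMD5 at -0.69 (-1.24 to -0.19), where 5.00%, 6.98% and 8.46% of all genes were. The alpha subunit PSMA3 had the highest log2 ratio of the 36 in the resistant libraries, above PSMB10 and below the other inducible members, at 0.53 (0.43 to 0.63) with TPF plus cinobufotalin and 0.57 (0.45 to 0.68) with TPF, while PSMD8 of the lid was at -0.42 (-0.54 to -0.29) and -0.33 (-0.46 to -0.19). The replaced subunits PSMB5 (0.31, 0.10 and 0.29), PSMB6 (-0.03, -0.09 and 0.09) and PSMB7 (0.10, 0.14 and 0.30) did not mirror their inducible counterparts.

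High cells also had a lower mitochondrial share of UMIs, a median of 2.94%, 3.32% and 3.18% against 4.24%, 4.60% and 4.40% in low cells, and more MALAT1 in both resistant libraries, at 0.94% against 0.76% with TPF plus cinobufotalin and 1.00% against 0.82% with TPF. KRT5, a basal keratin among the squamous markers, was lower in high cells, at 46.6 against 80.0 CPM with TPF plus cinobufotalin (-0.78, -1.03 to -0.54), 46.4 against 102 CPM with TPF (-1.13, -1.43 to -0.85) and 127 against 208 CPM in FaDu cells (-0.71, -0.87 to -0.56). KRT17, a more abundant keratin of the same marker list, differed little, at -0.03 (-0.07 to 0.01), -0.08 (-0.13 to -0.04) and 0.05 (0.02 to 0.09). MKI67, a marker of cycling cells, was at -0.02 (-0.21 to 0.16), -0.28 (-0.50 to -0.06) and -0.24 (-0.57 to 0.07). The part of these in the result was not tested. IFI27 alone held 63.1%, 58.2% and 58.4% of the ranking UMIs, and without it the log2 ratio of the 5 members was 1.05, 0.99 and 1.01.

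**Figure D3:**
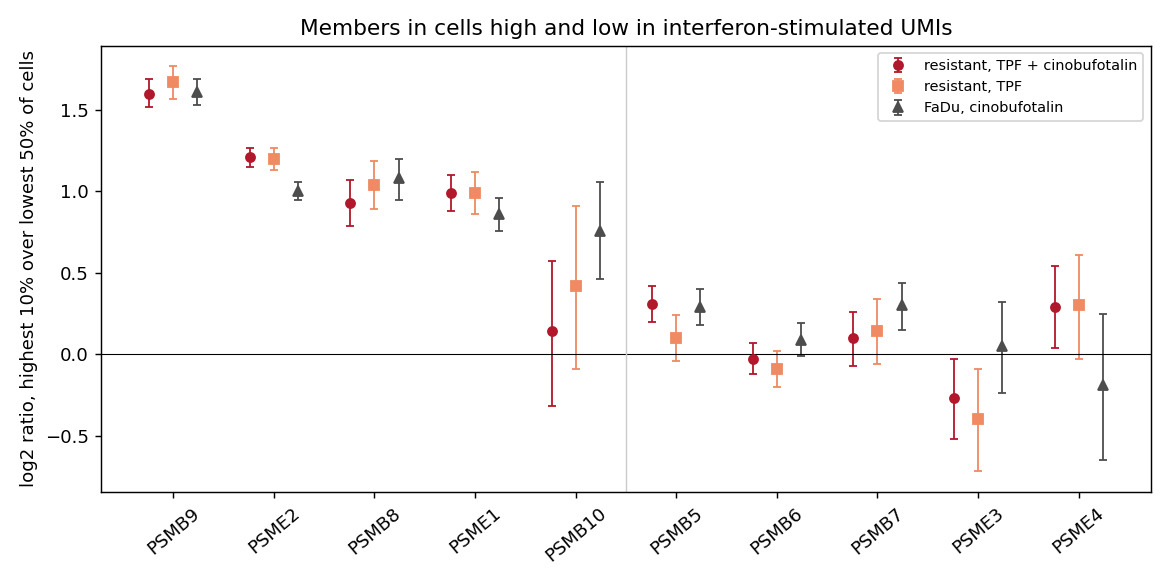
Log2 ratio of members in the highest 10% over the lowest 50% of cells by interferon-stimulated UMIs, cells thinned to 5000 UMIs, with 95% Clopper-Pearson intervals (counting error only) and 1 point per library. PSMB9, PSME2, PSMB8 and PSME1 lie between 0.86 and 1.67 in all 3 libraries, and the replaced subunits and other activators lie between -0.40 and 0.31.

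Several members called higher over FaDu cells were also higher in cells rich in MALAT1 inside every library, as were some members not called. Cells with MALAT1 at 0.3% to 1% of UMIs were set against cells under 0.1%, in each library alone. Both sets were limited to cells of at least 10000 UMIs with 2% to 8% mitochondrial UMIs. PSME4 had a log2 ratio of 1.02 (0.74 to 1.32) in the TPF plus cinobufotalin library, 0.61 (0.29 to 0.95) in the TPF library and 0.99 (0.81 to 1.17) in the FaDu library, against 0.41, 0.21 and 0.14 for the median gene. PSMD2 was at 0.76, 0.50 and 0.40, PSMD12 at 0.61, 0.28 and 0.41 and PSMD1 at 0.25, 0.25 and 0.36. PSMD5 was at 0.28, 0.07 (-0.20 to 0.36) and 0.37, so its interval in the TPF library included 0. PSMD1 and PSMD5 exceeded the median gene in part of the libraries. Of the others called higher, PSMA6 was at 0.54, 0.27 and 0.09, PSMA3-AS1 at 0.08, 0.34 and 0.24 and PSMC3IP at 0.68, 0.33 and 0.03. PSMB10 went the other way, at -0.22 (-0.50 to 0.08), -0.44 (-0.72 to -0.15) and -0.14 (-0.28 to -0.00). The other members called lower over FaDu cells did not share this. PSME1 was at 0.34, -0.00 and 0.02 and PSMB7 at 0.28, 0.13 and 0.05. PSMA1 was at 0.60, 0.15 and -0.03 and PSMB8-AS1 at 0.55, 0.22 and 0.09. Among members not called, PSMC6 was at 0.59, 0.30 and 0.14 and PSMC3 at 0.56, 0.26 and 0.08. Both were singled out after their values were seen. Being higher in cells rich in MALAT1 was thus not particular to members called higher over FaDu cells.

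Only cells with MALAT1 at 0.3% to 1% of UMIs, at least 10000 UMIs and 2% to 8% mitochondrial UMIs were then used from each library. These were 2560 with TPF plus cinobufotalin, 1706 with TPF and 881 FaDu cells, and the part of each limit was not tested. In them 2 members were called higher with TPF over FaDu (PSMD1 and PSMC3IP) and 3 with TPF plus cinobufotalin over FaDu (PSMA6, PSMD1 and PSMD5), where 20.4% and 21.8% of all genes were. Called lower were 2 (PSMB7 and PSMB10) and 6 (PSMA1, PSMB7, PSMB8-AS1, PSMB10, PSMC1 and PSME1), where 2.64% and 4.25% were. PSME4 then had a log2 ratio of 0.09 with TPF over FaDu and 0.46 with TPF plus cinobufotalin over FaDu, while PSMD1 was at 0.68 and 0.66. PSMB10 was at -0.71 and -0.95, PSMB7 at -0.68 and -0.69 and PSME1 at -0.58 and -0.65. The median of the 5 interferon-inducible members differed from that of the others by -0.18 and -0.29. The excess of the cap over the core was 0.30 with TPF over FaDu but 0.03 with TPF plus cinobufotalin over FaDu, and with TPF plus cinobufotalin over TPF it was -0.20.

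**Figure D4:**
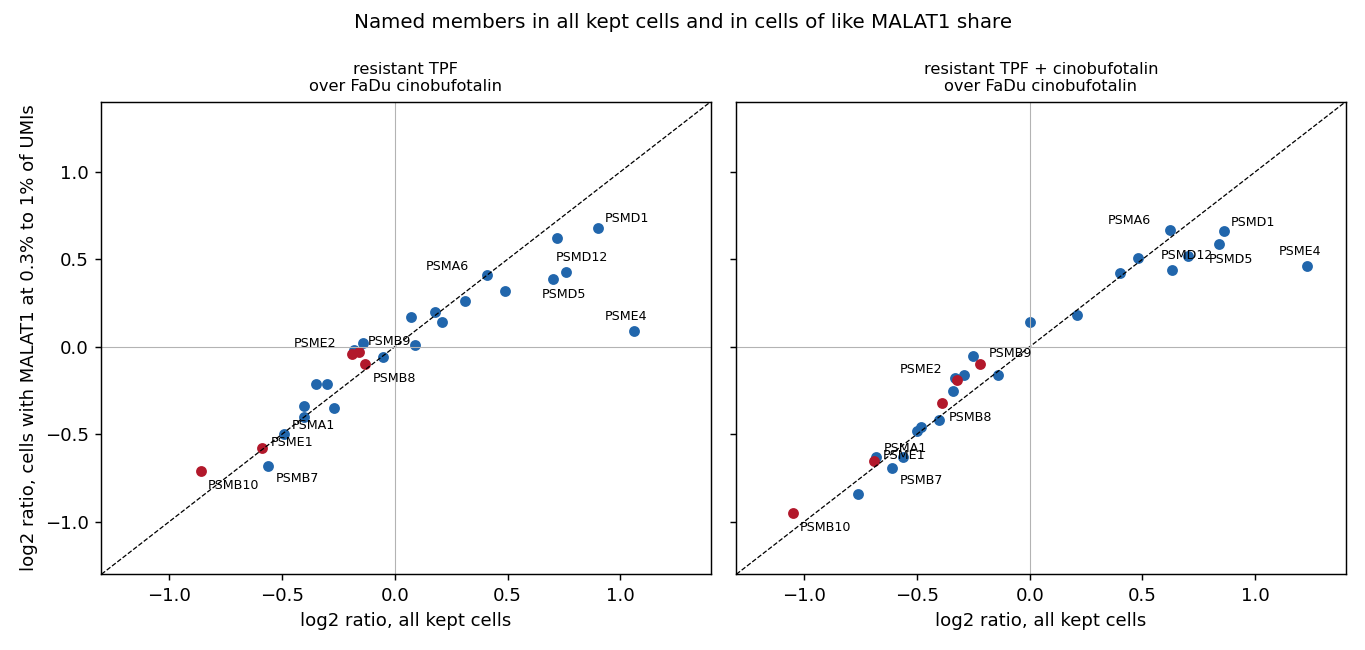
Log2 ratio of the named members in all kept cells (x axis) and in cells with MALAT1 at 0.3% to 1% of UMIs (y axis) for both comparisons with FaDu cells, with the 5 inducible members in red, other members in blue and equality as the dashed line. Cells on the y axis also had at least 10000 UMIs and 2% to 8% mitochondrial UMIs. PSME4 has 0.09 on the y axis at 1.06 on the x axis, and 0.46 at 1.23, whereas PSMB10, PSME1 and PSMB7 keep values between -0.58 and -0.95.

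Genes that act around the proteasome were described by lists, whose counts are read against the shares of all genes: 35.0% higher and 2.01% lower with TPF over FaDu, 32.6% and 4.14% with TPF plus cinobufotalin over FaDu, and, relative to the median gene, 14.9% and 11.3% in the first of these and 17.5% and 13.3% in the second. Of 11 compared assembly and associated factors, 3 were at least 1.5-fold higher and 1 lower with TPF over FaDu, and 2 higher and 0 lower with TPF plus cinobufotalin over FaDu. Relative to the median gene these counts turned to 1 and 4, and 1 and 3. The one lower was PSMG4, a chaperone of core assembly, at 60.4 CPM with TPF against 99.3 CPM in FaDu cells (-0.72, -0.76 to -0.68). POMP, the maturation factor of the core, was at 951 CPM with TPF plus cinobufotalin against 794 CPM with TPF (0.26, 0.25 to 0.27).

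NFE2L1, the factor that induces proteasome genes when the proteasome is inhibited, was at 53.1 CPM in both resistant libraries and 39.5 CPM in FaDu cells. Of the 7 genes of its pathway 2 were called higher with TPF over FaDu and 1 with TPF plus cinobufotalin over FaDu, shares below those of all genes, and 1 and 0 were relative to the median gene. NGLY1, the enzyme that strips its sugars, was at 31.0 CPM with TPF against 15.3 CPM in FaDu cells (1.02, 0.95 to 1.09). Of 6 ubiquitin and E1 genes 2 were higher and 0 lower in each comparison with FaDu, near the share of all genes, and 0 were higher and 1 lower relative to the median gene. No gene of the shuttle and segregase list (8 compared) passed the call in either comparison.

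Of 13 interferon signalling genes, whose products act upstream of the inducible members, 8 were at least 1.5-fold higher in each resistant library over FaDu and 0 lower, with a median log2 ratio of 0.71 in both comparisons. Relative to the median gene, 2 were higher and 0 lower with TPF and 3 higher and 1 lower with TPF plus cinobufotalin, and 5 of the 13 lay below that gene in each. IRF1, which acts on immunoproteasome promoters, was at 91.2 CPM with TPF plus cinobufotalin, 91.1 CPM with TPF and 55.7 CPM in FaDu cells. Of the 40 compared interferon-stimulated genes, 8 were called higher and 7 lower with TPF over FaDu and 7 and 10 with TPF plus cinobufotalin over FaDu. Relative to the median gene these counts were 4 and 15, and 2 and 17, with 29 of the 40 below that gene in each. IFITM1, an antiviral membrane protein, was at 54.9 CPM with TPF plus cinobufotalin, 70.5 CPM with TPF and 165 CPM in FaDu cells, and BST2, which tethers virions, at 139, 147 and 313 CPM. Of 14 MHC class I loading genes 1 was higher and 0 lower in each comparison, whereas relative to the median gene 0 were higher in each and 2 were lower with TPF and 7 with TPF plus cinobufotalin. TAP1 was at 36.7, 48.0 and 53.6 CPM.

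Some counts are uncertain because annotated genes overlap and the use of strand in counting is not given. PSMB8, PSMB9, PSMB8-AS1 and TAP1 overlap on chromosome 6, PSME4 overlaps ACYP2 (35.7 CPM), PSMA3 overlaps PSMA3-AS1, and PSMC3IP overlaps MLX (45.5 CPM). Likewise PSME1 overlaps EMC9 (87.6 CPM), PSME3 overlaps BECN1 (46.8 CPM), PSMC2 overlaps DNAJC2 (88.9 CPM), and further members overlap other annotated genes. The 4 pseudogenes of PSMA6 held 326, 358 and 317 UMIs, against 2954, 2571 and 2369 for PSMA6 itself, and reads may be split between such copies. The log2 ratio over FaDu cells was set against the genomic span of each gene. Among the 41 compared subunits Spearman's rho was 0.14 with TPF and 0.21 with TPF plus cinobufotalin, and Pearson's r 0.28 and 0.35. Among all 8143 genes rho was 0.48 and 0.51 and r 0.45 and 0.47. These are descriptions across genes that share the libraries, and their difference was not tested.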

How the data were processed

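The 3 libraries were made with 10x 3′ chemistry version 3.1, per the labels. The deposited files hold raw UMI counts per gene and barcode, from Cell Ranger 7.0 and build hg38 per the submitters' processing notes; none of the sources used here gives the annotation, introns or strand. Gene types and spans came from GENCODE release 29 and promoters from RefSeq. Cells were barcodes of 1000 or more UMIs and 500 or more genes, with mitochondrial UMIs no higher than 20%. Doublets and free RNA were not removed. UMIs were summed per library, scaled to CPM and compared as log2 ratios with Clopper-Pearson intervals (Python 3.11.15, numpy 2.4.6, scipy 1.17.1, pandas 2.3.3); TMM factors came from edgeR 4.0.16 in R 4.3.3. With 1 library per group there was no test. Members and lists were chosen with earlier results of these data known. Named members were the 5 interferon-inducible ones, PSMB5, PSMB6, PSMB7, PSME3, PSME4, the 4 highest and 4 lowest others of each pair and symbols that are no subunit; up to 4 genes of each list were named by distance from the median gene, and IRF1, NFE2L1 and genes named from counts of high cells were added. Marker lists of fibroblasts (6) and endothelium (4) had 0 genes at 5 CPM. On simulated Poisson counts, of 50 genes per size all at 2-fold, higher or lower, and 0 at 1.1-fold were called in each pair. At this depth such counts leave little room for another outcome, and they hold no spread between cells or cultures. The smaller size was lowered from a first choice, which makes it easier to leave uncalled.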

Additional observations from a re-analysis of the deposited data

How the results depend on the processing

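No paired analysis was possible because each group is 1 library, and for the same reason no replicate could be left out. Of the alternatives, all deposited barcodes, at most 10% mitochondrial UMIs and at least 2000 genes per cell changed no count of members called and no contrast beyond its counting error. None of the named members changed sign in a pair where it was called. PSMD2, called with TPF over FaDu, was not among them, and its sign was not followed. The median of the other subunits with TPF over FaDu, 0.08, was -0.49 with TMM factors and -0.29 less the median gene. Uncalled members changed sign in that pair, such as PSMA6 (0.41, and -0.16 with TMM factors) and PSMB6 (-0.14, and 0.02 at matched MALAT1). With TPF plus cinobufotalin over TPF, 1 member was called higher without the filter (PSMA8, on 5 UMIs against 1) and 1 lower after thinning to 5000 UMIs (PSMD3); the contrast of inducible and other members was -0.09 with equal weight per cell, -0.07 after thinning and -0.09 at matched MALAT1, and that of cap and core -0.29 with equal weight and -0.20 at matched MALAT1. With TPF over FaDu, members called higher numbered 2 at matched MALAT1, 0 with TMM factors, 1 less the median gene, 3 at 50 CPM and 1 at 2-fold, and those lower 1 without cells over 2 times the median UMIs, with equal weight, after thinning and at 50 CPM, 19 with TMM factors, 11 less the median gene and 0 at 2-fold; the contrast of inducible and other members was -0.18 at matched MALAT1 and -0.21 at 50 CPM, and that of cap and core 0.34 without deep cells and after thinning, 0.30 at matched MALAT1 and 0.46 at 50 CPM. With TPF plus cinobufotalin over FaDu, members called higher numbered 3 at matched MALAT1, 1 with TMM factors, less the median gene and at 2-fold, 2 at 50 CPM and 10 without the filter, and those lower 25 with TMM factors, 17 less the median gene, 3 at 50 CPM and 1 at 2-fold; the contrasts were -0.29 at matched MALAT1 and at 50 CPM for inducible members, and 0.19 without deep cells and 0.03 at matched MALAT1 for cap and core. Higher limits on level leave fewer genes compared. The cause of the other shifts was not tested. Cells at matched MALAT1 were also limited to at least 10000 UMIs and 2% to 8% mitochondrial UMIs. The share of immunosubunits among catalytic UMIs was 41.7% with equal weight, 42.9% after thinning and 42.8% at matched MALAT1 in the TPF plus cinobufotalin library, 43.9% at matched MALAT1 in the TPF library, and 42.1% without deep cells, 42.0% after thinning and 42.2% at matched MALAT1 in the FaDu library. With the highest 20% of cells the 5 members had log2 ratios of 1.18, 1.19 and 1.06 in the TPF plus cinobufotalin, TPF and FaDu libraries, and 1.05, 0.99 and 1.01 without IFI27, an alternative chosen after seeing the data, as was the contrast of cap and core. Depth was not the limit for most members, but PSMB10 rested on 1939, 2214 and 4927 UMIs. Among other called members, PSMB8-AS1 rested on 1111, 1430 and 2318 UMIs and PSMA6 on 2954, 2571 and 2369. The spread between cultures is unknown.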
